A study of Rattus norvegicus with 15 samples.

Results

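The genes described here are 8 markers of mast cells: Fcer1a, Ms4a2, Kit, Cpa3, Cma1, Tpsab1, Tpsb2 and Hdc. They were taken as the genes of a fixed list for which at least 1 probe set names that gene and no other. All 8 were found, with 9 probe sets between them, of 14217 genes and 31099 probe sets on the array. The tissue was epididymal fat, the fat pad beside the testis, from male Long-Evans rats of a private colony. The 7 obese rats (C1, C2, C3, C5, C6, C7 and C8) had eaten a high fat/high sucrose diet since weaning, and the 8 lean rats (A1 to A8) a regular chow. All were killed at 26 weeks of age, and RNA of each rat was hybridised to 1 Affymetrix RAE230_2 array. No obese rat 4 was analysed here.

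Mast cells are tissue-resident immune cells packed with granules. They mature in the tissue under signals through Kit, the receptor of stem cell factor, and are armed by IgE bound to its high-affinity receptor. Crosslinking of that IgE releases the granule content: histamine, which Hdc makes from histidine, and the proteases carboxypeptidase A3, chymase and the tryptases. In fat they lie among the adipocytes and along vessels, and their number and role in obesity have been studied mainly in mice and humans.

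Values are MAS5 signals on a linear scale, which were set to a common trimmed mean on every array before they were deposited. Signals of different probe sets are not compared with each other. Array C1 (obese) and array A7 (lean) correlated at r = 0.978 over probe sets, against 0.957 for the next closest of 105 pairs of arrays and a median of 0.935. These 2 arrays carry opposite labels, so the fits of the members are given with all 15 arrays and with the 13 arrays that leave out both (6 obese, 7 lean). Unless 13 arrays are named, signals and fold changes are over all 15. Array C3 stood apart, with the lowest median correlation with the others (0.917) and a hybridisation spike-in level of 16.2 in log2 units. The 6 adipocyte markers, Adipoq and Plin1 among them, all lay above the filter on low values. The log2 ratio of the 3 prime to the 5 prime Gapdh probe set averaged 0.77 ± 0.28 in obese and 1.04 ± 0.26 in lean rats (SD, n = 7 and 8). With 13 arrays it averaged 0.72 ± 0.27 in obese and 1.04 ± 0.28 in lean rats (SD, n = 6 and 7).

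The promoters of 4 members are shown because GATA factors are known to drive many mast cell genes and because the members' covariation is described further on. Each line is the 250 bases before the gene's start, 5′ to 3′ on the gene's strand, from RefSeq (build GRCr8). Capitals mark GATAA or its reverse complement TTATC.
Fcer1a, chr13:88224680-88224929, minus strand: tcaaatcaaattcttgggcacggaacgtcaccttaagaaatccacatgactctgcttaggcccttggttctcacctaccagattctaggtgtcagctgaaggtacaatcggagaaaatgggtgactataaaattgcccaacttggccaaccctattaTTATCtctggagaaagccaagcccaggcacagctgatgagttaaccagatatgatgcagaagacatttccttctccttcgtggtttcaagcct
Cpa3, chr2:104673238-104673487, minus strand: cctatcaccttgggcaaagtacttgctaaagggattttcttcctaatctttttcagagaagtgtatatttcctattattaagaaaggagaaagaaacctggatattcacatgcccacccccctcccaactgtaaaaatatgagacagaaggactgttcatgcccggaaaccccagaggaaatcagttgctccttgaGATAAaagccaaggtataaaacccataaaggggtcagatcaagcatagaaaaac
Cma1, chr15:33390134-33390383, minus strand: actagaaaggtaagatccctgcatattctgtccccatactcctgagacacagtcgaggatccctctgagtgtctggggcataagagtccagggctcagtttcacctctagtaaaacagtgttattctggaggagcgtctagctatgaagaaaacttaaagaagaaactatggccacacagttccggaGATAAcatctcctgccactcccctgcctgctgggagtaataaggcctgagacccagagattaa
Tpsb2, chr10:14886060-14886309, plus strand: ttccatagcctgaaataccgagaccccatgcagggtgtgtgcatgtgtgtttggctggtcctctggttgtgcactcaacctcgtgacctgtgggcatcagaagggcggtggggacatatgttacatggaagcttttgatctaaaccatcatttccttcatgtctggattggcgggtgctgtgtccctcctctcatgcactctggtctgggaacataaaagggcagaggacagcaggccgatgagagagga

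The nearest base of the match lay 50 bases upstream of the start in Cpa3, 59 in Cma1 and 89 in Fcer1a. Tpsab1 held 2 matches, 176 and 25 bases upstream, and Tpsb2, Kit and Hdc held none in this window. Of all 33469 promoter windows of this length, 23.5% held a match on either strand, against 4 of the 7 members in the table. In the RefSeq annotation the tryptase genes Tpsab1 and Tpsb2 are neighbours, with 0 protein-coding genes between them.

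Of the 8 genes, 6 had a probe set above the filter on low values (that is, its log2 signals averaged over the 40th percentile of all probe sets) and entered the comparison. None of the 6 passed an adjusted p of 0.05 between obese and lean rats, with 15 or with 13 arrays (limma, Benjamini-Hochberg adjustment over 18625 probe sets). Over all probe sets, 0% passed with 15 arrays and 1.01% with 13 arrays, 0.725% higher and 0.29% lower in obese rats. At an unadjusted p under 0.05, Fcer1a and Ms4a2 passed, both lower in obese rats, but neither did under median centring or quantile normalization. At that level stood 15.6% of all probe sets with 15 arrays and 17.8% with 13 arrays. Those lower in obese rats made up 8.82% and 10.2% of all. None of the 6 had groups that do not overlap, against 0.193% of all probe sets with 15 arrays and 1.45% with 13 arrays.

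All 6 members had a log2 fold change (obese minus lean) below 0, with both sets of arrays, as had 57.5% of all probe sets with 15 arrays and 57.8% with 13 arrays. Their median log2 fold change was -0.18 with 15 arrays and -0.19 with 13 arrays, beside -0.038 and -0.043 over all probe sets. Direction here depends on the scaling. When arrays were aligned at their medians, the median fold change over all probe sets went up by 0.10 (15 arrays) and 0.12 (13 arrays), and 4 of the 6 members then lay below 0, beside 36.5% and 37.0% of all probe sets. Under quantile normalization 5 of the 6 lay below 0 in both sets of arrays, beside 52.3% of all probe sets in each. No member passed, so a decrease is not established. In whole fat tissue, a difference in mast cell number cannot be told apart from one in RNA per mast cell.

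**Figure D1:**
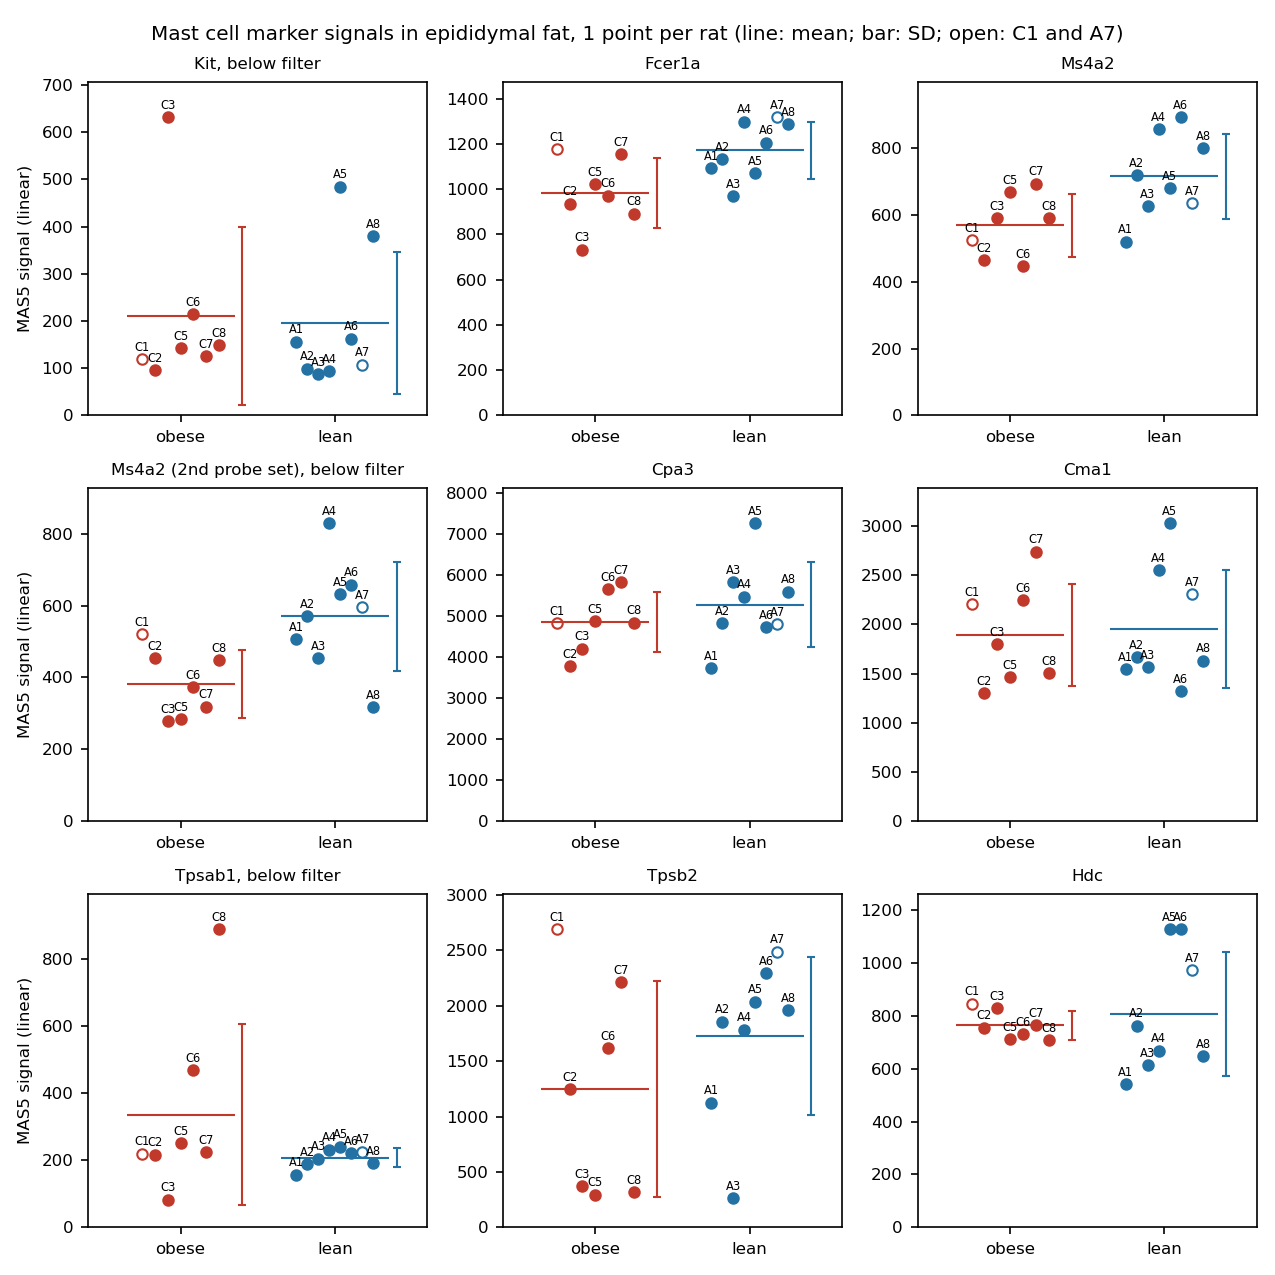
MAS5 signal (linear, vertical axis) of each mast cell probe set in each rat, obese on the left and lean on the right of every panel; lines are means, bars are SD, and open points are C1 and A7. The groups overlap in all 9 panels, and Tpsb2 has 4 rats at 372.3 or below and 11 at 1124.3 or above.

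Fcer1a encodes the alpha subunit of the high-affinity IgE receptor, the chain that holds IgE. Its signal (Entrez Gene 25047) ranged between 732.7 and 1177 in the 7 obese rats, with a median of 972.4, against 970.6 and 1318.3 in the 8 lean rats, with a median of 1168.6. The lowest obese rat was C3, and 4 lean rats (A4, A6, A7 and A8) lay above every obese rat. The groups overlapped. The means were 984 ± 154 in obese and 1172 ± 125 in lean rats (SD, n = 7 and 8). Its log2 fold change was -0.24 ± 0.10 (SE; 95% interval -0.46 to -0.024), with a limma p of 0.0315 and an adjusted p of 0.272. With 13 arrays it was -0.26 ± 0.11, with an adjusted p of 0.228. Without C3, the array that stood apart, it was -0.18 with 15 arrays and -0.19 with 13 arrays (limma adjusted p = 0.354 and 0.312, and unadjusted p above 0.05 in both). Median centring gave -0.14 in both sets of arrays (adjusted p = 0.602 and 0.599).

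Ms4a2 encodes the beta subunit of the same receptor, which amplifies its signal. The brighter of its 2 probe sets (Entrez Gene 25316) gave 446.3 to 694.2 in obese rats, with a median of 590, and 520 to 892.5 in lean rats, with a median of 698.9. Lean rats A2, A4, A6 and A8 lay above every obese rat, and lean rat A1 lay below 5 of the 7 obese rats. By limma the fold change on the log2 scale was -0.29 ± 0.12 (SE; 95% interval -0.54 to -0.041), with an unadjusted p of 0.0250 and an adjusted p of 0.253, and -0.30 ± 0.13 with 13 arrays (adjusted p = 0.261). Under median centring it was -0.19 with 15 arrays and -0.18 with 13 arrays (adjusted p = 0.463 and 0.524). The second probe set of Ms4a2 lay below the filter. It gave 277.9 to 521.2 in obese rats (median 373.4) and 317.5 to 828.6 in lean rats (median 582.8). In a limma fit with no filter its log2 fold change was -0.48 ± 0.17 with an adjusted p of 0.294, and -0.53 ± 0.18 with 13 arrays (adjusted p = 0.226). Both probe sets of Ms4a2 thus had lower means in obese rats and groups that overlap, and neither passed.

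Fcer1g encodes the gamma subunit, which the IgE receptor shares with Fc receptors of macrophages and other myeloid cells. It ran the opposite way to the 2 mast cell subunits. Its signal was 11473.4 to 35206.8 in obese rats (median 17332.4) and 7435.8 to 14447 in lean rats (median 10577). Obese rat C6 was far above the rest, and obese rats C1 and C3 lay within the lean range. The log2 fold change was 0.77 ± 0.19 with 15 arrays (limma adjusted p = 0.107) and 0.89 ± 0.20 with 13 arrays (adjusted p = 0.0465). That pass was narrow: leaving out any of 11 of the 13 rats put the adjusted p above 0.05, and without C6 the log2 fold change was 0.72 (adjusted p = 0.0731). Of the macrophage markers 15 of 15 were higher in obese rats, with a median log2 fold change of 0.39 (0.45 with 13 arrays). Over all 18625 probe sets 7921 were higher with 15 arrays and 7869 with 13 arrays. Covariation of these markers with Fcer1g across rats was not computed. With 13 arrays 4 of the 15 macrophage markers passed (Gpnmb, Cd68, Laptm5 and Lgals3) and with 15 arrays none did. The summed signal of the 15, in which bright probe sets weigh most, was 162367.7 to 400719.8 in obese and 126813.1 to 184874.8 in lean rats. With 13 arrays this sum was 205045.6 to 400719.8 in obese and 126813.1 to 184874.8 in lean rats. These ranges do not overlap, as was so for 1.45% of single probe sets with 13 arrays. The part of the macrophage markers in the Fcer1g value was not tested.

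**Figure D2:**
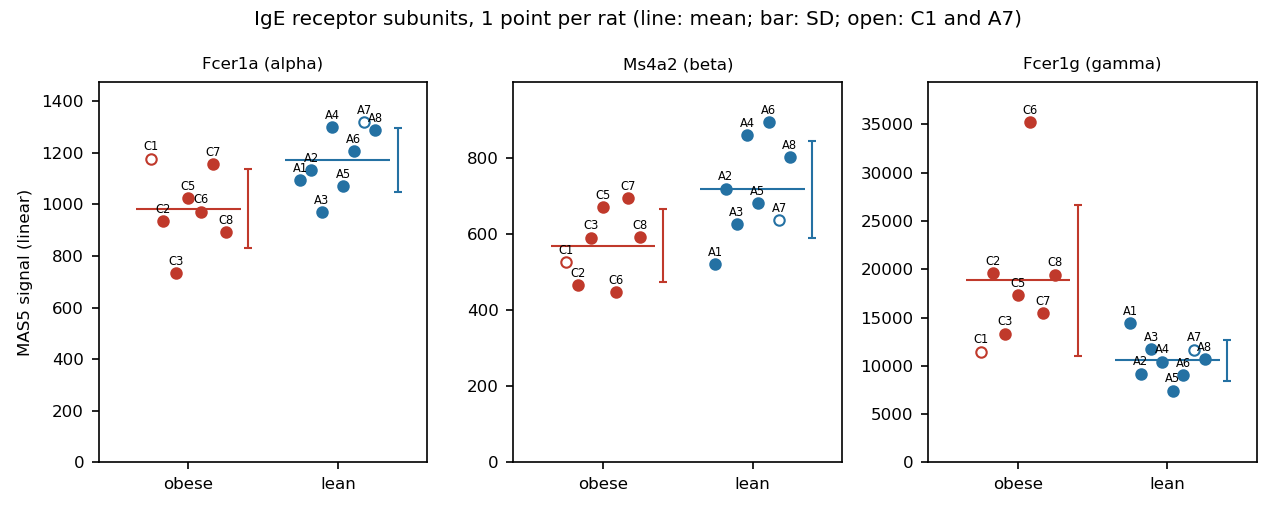
MAS5 signal (linear, vertical axis) of the 3 IgE receptor subunits in each rat, obese left and lean right; lines are means, bars are SD, and open points are C1 and A7. Mean signals of Fcer1a and Ms4a2 are lower, and that of Fcer1g higher, in obese rats, with overlap in each panel.

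Kit encodes the receptor tyrosine kinase for stem cell factor. Its only single-gene probe set (Entrez Gene 64030) lay below the filter. It gave 95.7 to 631.4 in obese rats (median 142.7) and 87.8 to 484.6 in lean rats (median 131.9). A single obese rat, C3, and lean rats A5 and A8 stood at 379 or above, and the other 12 rats lay between 87.8 and 214.2. With no filter the log2 fold change was 0.055 ± 0.32 (limma adjusted p = 0.961), and 0.059 ± 0.36 with 13 arrays (adjusted p = 0.959). The 95% interval, -0.63 to 0.74 with 15 arrays, includes 0.

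Cpa3 encodes carboxypeptidase A3, a protease stored in mast cell granules. Its signal (Entrez Gene 54242) was 3772.4 to 5823.5 in obese rats (median 4833.2) and 3731.6 to 7252.3 in lean rats (median 5146.4). The lean range spanned the whole obese range, with A5 highest and A1 lowest of all rats. Between groups the log2 fold change was -0.11 ± 0.13 (limma adjusted p = 0.722), and -0.13 ± 0.15 with 13 arrays (adjusted p = 0.692). The 95% interval with 15 arrays ran from -0.38 to 0.16. Median centring brought the value to -0.0074 with 15 arrays and -0.010 with 13 arrays.

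Cma1 encodes mast cell chymase, a serine protease of the granules. It gave 1299.3 to 2737.7 in obese rats (median 1800.1) and 1319.4 to 3026.8 in lean rats (median 1649.5; Entrez Gene 25627). Lean rat A5 and obese rat C7 were the highest, and the groups covered nearly the same range. Its log2 fold change was -0.034 ± 0.19 (limma adjusted p = 0.948) and -0.036 ± 0.21 with 13 arrays (adjusted p = 0.948). Its sign turned under median centring (0.068 with 15 arrays and 0.081 with 13 arrays).

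Hdc encodes histidine decarboxylase, the enzyme that makes histamine. Its signal (Entrez Gene 24443) was 706.7 to 844.9 in obese rats (median 754.3) and 541.9 to 1126.2 in lean rats (median 714.9). Every obese rat lay inside the lean range. The standard deviation was 54.7 over the 7 obese rats and 235 over the 8 lean rats, a difference in spread that was not tested. Hdc had a log2 fold change of -0.034 ± 0.14 (limma adjusted p = 0.930) and -0.015 ± 0.15 with 13 arrays (adjusted p = 0.973), and its sign turned under median centring and quantile normalization.

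Tpsab1 and Tpsb2 encode the tryptases, serine proteases stored in mast cell granules. Tpsab1 (Entrez Gene 54271) lay below the filter. It gave 82.4 to 888.7 in obese rats (median 224.2) and 157.1 to 240.4 in lean rats (median 213.1). Obese rats C8, C6 and C5 stood above all lean rats and C3 below all of them. With no filter the log2 fold change was 0.33 ± 0.27 (limma adjusted p = 0.661), and 0.38 ± 0.31 with 13 arrays (adjusted p = 0.617). The tryptases are close in sequence, and whether their probe sets bind each other's transcripts was not tested.

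Tpsb2 (Entrez Gene 29268) had the largest SD among the 6 members above the filter on linear signals relative to the mean and on the log2 scale. Its signal was 296.6 to 2689.8 in obese rats (median 1249.2) and 262.9 to 2489.3 in lean rats (median 1909). The rats fell into 2 sets with nothing between: 4 rats (obese C3, C5 and C8 and lean A3) had 262.9 to 372.3, and 11 rats (4 obese and 7 lean) had 1124.3 to 2689.8. The step across the gap was 3.02-fold. A gap of at least 3-fold with at least 3 rats on each side was found in 11 of the 18625 probe sets (0.0591%) and in no other member above the filter, a rule written after the Tpsb2 values were seen. In the 4 low rats the neighbouring gene Tpsab1 gave 82.4 (C3), 251 (C5), 888.7 (C8) and 205.2 (A3), so it was not low in all of them.

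The log2 fold change of Tpsb2 was -0.67 ± 0.50 with 15 arrays (95% interval -1.71 to 0.38; limma adjusted p = 0.536) and -0.81 ± 0.51 with 13 arrays (adjusted p = 0.422). Of the 4 low rats, 3 were among the 7 obese and 1 among the 8 lean rats. Leaving out 1 rat at a time moved it between -0.98 (without A3) and -0.43 (without C5) with 15 arrays, and none of these fits passed.

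**Figure D3:**
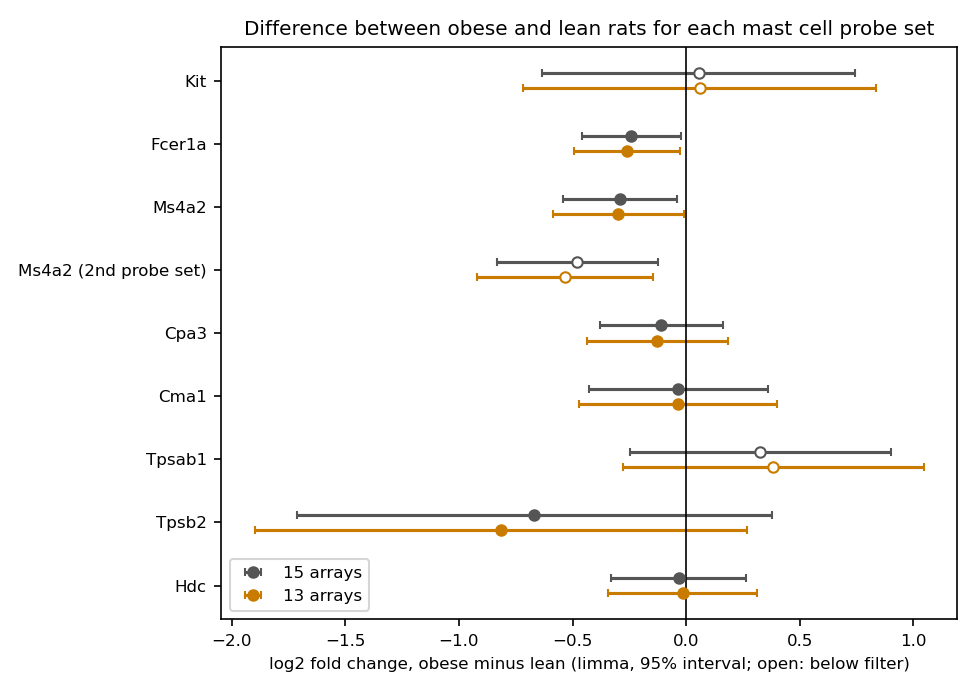
Log2 fold change (obese minus lean, horizontal axis) of each mast cell probe set from limma, with its 95% interval, for 15 arrays (grey) and 13 arrays (orange); open points are probe sets below the filter. The intervals of Fcer1a and of both Ms4a2 probe sets lie below 0 before adjustment, and that of Tpsb2 is the widest, running from -1.71 to 0.38 with 15 arrays.

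Covariation across rats was read from the 15 pairs that the 6 members above the filter form, on log2 signals. Because Tpsb2 fell into 2 sets of rats, its 5 pairs were read over the 11 upper rats (9 without C1 and A7). With 15 arrays all 15 pairs had a positive Pearson r, between 0.075 and 0.65 with a median of 0.37. With 13 arrays 14 were positive, between -0.014 and 0.75 with a median of 0.37. In each set of arrays 4 pairs had an unadjusted permutation p under 0.05, and none passed after Benjamini-Hochberg adjustment over the 15 pairs. By Spearman's rho 1 pair passed, with 13 arrays. All pairs come from the same arrays and share each array's scaling. The share of positive r among pairs of other probe sets was not computed.

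The granule proteases Cpa3 and Cma1 gave the highest r of the 10 pairs without Tpsb2 in both sets of arrays. Obese rat C2 was the lowest in Cma1 and, after A1, in Cpa3, and A5 and C7 were the highest in both. With 15 arrays r was 0.65 and rho 0.56 (two-sided permutation p = 0.00743 and 0.0320; adjusted p = 0.111 and 0.160). Without the rats farthest from the median of Cpa3, A1 and A5, r was 0.50 (permutation p = 0.0782). With 13 arrays r was 0.71 and rho 0.66 (permutation p = 0.00578 and 0.0169; adjusted p = 0.0867 and 0.126), and 0.60 without A1 and A5. Within groups r was 0.77 over the 7 obese and 0.59 over the 8 lean rats (exact permutation p = 0.0474 and 0.122). The adjusted p was 0.0403 with 15 arrays without lean rat A3 (r = 0.73), and 0.0346 with 13 arrays without A3 (r = 0.78). Leaving out any other rat gave no pass with 15 arrays, and with 13 arrays only leaving out C3 did. A3 had a high Cpa3 signal (5818) beside a Cma1 signal of 1566.5, below the lean median of 1649.5, so leaving it out raised r.

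**Figure D4:**
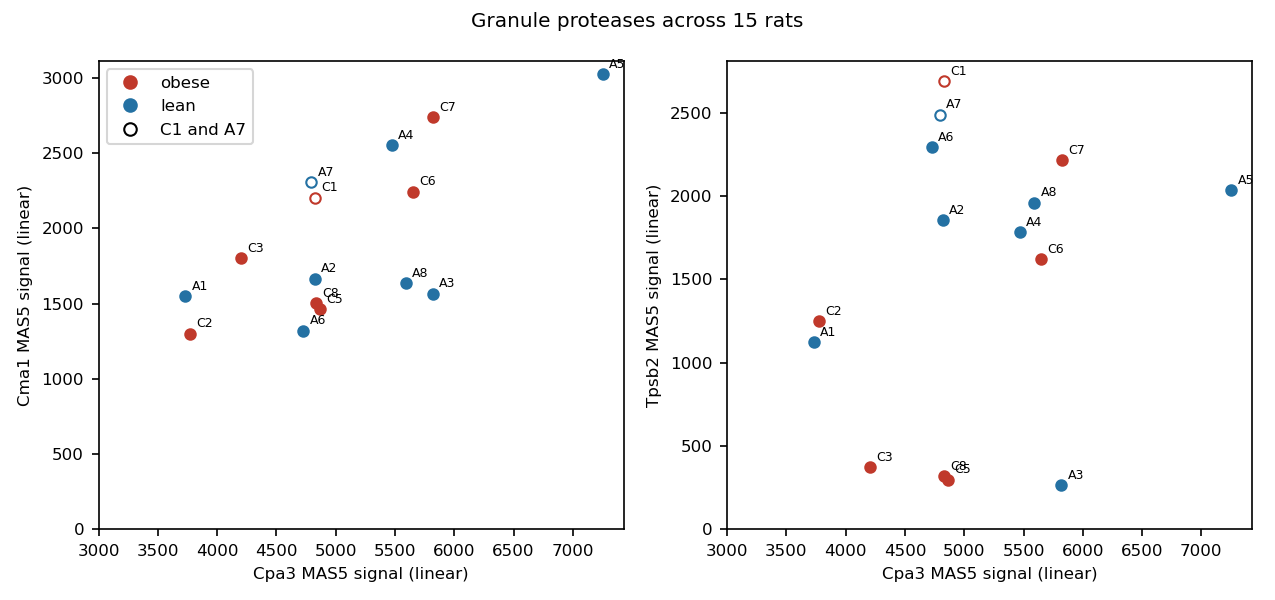
Signal of Cma1 (left) and Tpsb2 (right) on the vertical axis against signal of Cpa3 on the horizontal axis, which does not start at 0, in 15 rats (red obese, blue lean, open C1 and A7; all linear MAS5 signals). Over the 15 rats r of Cma1 with Cpa3 on log2 signals is 0.65 (adjusted p = 0.111), and the 4 rats low in Tpsb2, at 262.9 to 372.3, lie inside the Cpa3 range of the others.

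The IgE receptor subunits Fcer1a and Ms4a2 had r = 0.54 and rho = 0.61 with 15 arrays (permutation p = 0.0385 and 0.0174; adjusted p = 0.186 and 0.131). With 13 arrays r was 0.66 and rho 0.80 (permutation p = 0.0131 and 0.00167), and the adjusted p was 0.0985 for r and 0.0250 for rho. On values centred on each group's mean r was 0.31 with 15 arrays and 0.48 with 13 arrays (permutation within groups, p = 0.274 and 0.113). Within groups, with 15 arrays, r was 0.14 over 7 obese and 0.52 over 8 lean rats (exact permutation p = 0.760 and 0.183). With 13 arrays it was 0.27 over 6 obese and 0.73 over 7 lean rats (exact permutation p = 0.610 and 0.0599). Without C3, with 13 arrays, the pair passed (r = 0.78, adjusted p = 0.0301), as did Cpa3 with Cma1 (r = 0.75, adjusted p = 0.0301).

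Among the 11 upper rats of the 15 arrays, Tpsb2 had r = 0.65 and rho = 0.75 with Hdc (permutation p = 0.0326 and 0.0118; adjusted p = 0.186 and 0.131), and over the 9 upper rats of the 13 arrays r = 0.64 (exact permutation p = 0.0567). With Fcer1a it had r = 0.60 over 11 rats and 0.55 over 9 rats (permutation p = 0.0497 and exact permutation p = 0.127). With Ms4a2 r was 0.44 over 11 rats and 0.75 over 9 rats (permutation p = 0.173 and exact permutation p = 0.0215). With Cpa3 r was 0.51 over 11 rats and 0.72 over 9 rats (permutation p = 0.111 and exact permutation p = 0.0279). With Cma1 r was 0.43 over 11 rats and 0.39 over 9 rats (permutation p = 0.185 and exact permutation p = 0.307). None of these 5 pairs passed after adjustment in either set of arrays. Read over all rats, as was planned, Fcer1a with Tpsb2 passed with 15 arrays (permutation adjusted p = 0.0261) and no pair did with 13 arrays. No pooled r is given for it, since the rats lie in 2 separate sets of Tpsb2 values. The 9-rat relation with Cpa3 rested on C2 and A1: without them r was -0.035.

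**Figure D5:**
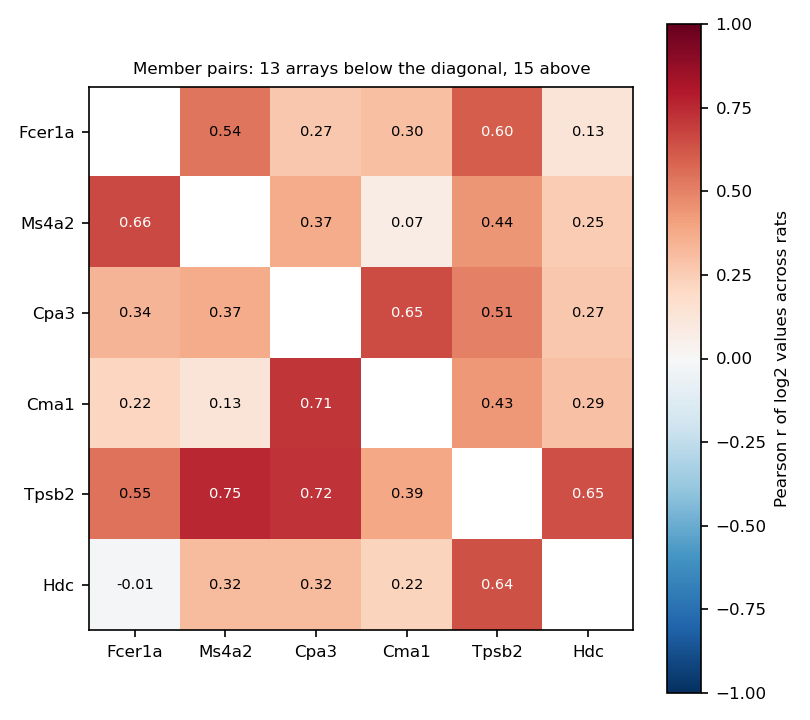
Pearson r of log2 signals across rats for each pair of the 6 members above the filter, with 15 arrays above the diagonal and 13 arrays below it; Tpsb2 pairs are over 11 and 9 rats. Cpa3 with Cma1 is at 0.65 and 0.71, and Hdc with Fcer1a at 0.13 and -0.014.

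Likeness was also ranked over all probe sets, on the 13 arrays and with each group centred on its mean, as a description with no test. Cma1 was the 41st most like Cpa3 of 18624 probe sets, and Cpa3 the 36th most like Cma1 (r = 0.73). Against the mean of the other members, Cma1 ranked 639, Cpa3 659, Tpsb2 682, Fcer1a 1093, Ms4a2 1465 and Hdc 2081 of 18625, at r between 0.36 and 0.53. Without Tpsb2, Cpa3 ranked 346 and Fcer1a 2875. Many genes that are no members thus ran closer to the members' mean than the members did.

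The 10 genes most like the mean of the 6 members were Ctbs, Wdr45, F2, Bnip3, Serpina3l, Fundc2, Pigr, Itih3, Rnf151 and Atp5po, at r between 0.81 and 0.90 over 13 arrays. They were picked as the highest from among 18625 probe sets, and the r that unrelated probe sets would reach was not computed. Tpsb2 entered this mean, and the ranks against the other members' mean, over all 13 rats, its low set included. Ctbs encodes a lysosomal chitobiase, F2 prothrombin and Atp5po a subunit of the mitochondrial ATP synthase. None of the 10 is in a list of other mast cell genes used here. With the mean taken without Tpsb2, 5 of the 10 were shared (Atp5po, Bnip3, F2, Fundc2 and Wdr45).

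Other genes of mast cell function came from 7 lists with 59 genes, chosen with earlier results of these data known. Of these, 34 were above the filter, 15 below it, and 10 had no probe set naming them alone. In obese rats 20 of the 34 were lower and 14 higher, beside 57.5% of all probe sets lower with 15 arrays and 57.8% with 13 arrays. The median log2 fold change of the 34 was -0.071 (-0.066 with 13 arrays). With 15 arrays none passed, and 6 had an unadjusted limma p under 0.05, as had 15.6% of all probe sets. With 13 arrays 2 passed, Slc22a3 and Fcer1g, against 1.01% of all probe sets.

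Slc22a3 encodes an organic cation transporter that carries histamine out of and into many cell types, and its change was known when the list was drawn up. Its signal was 208 to 1721.8 in obese rats (median 474.1) and 1048.3 to 2476.7 in lean rats (median 1310.4). Obese rat C1 alone lay within the lean range. Between groups its log2 fold change was -1.28 ± 0.30 with 15 arrays (limma adjusted p = 0.103) and -1.50 ± 0.25 with 13 arrays (adjusted p = 0.0157). With 13 arrays it passed whichever rat was left out, but not once the fit held the Gapdh ratio (adjusted p = 0.0972). All 5 histamine genes above the filter were lower in obese rats, beside 57.5% of all probe sets with 15 arrays. The median log2 fold change of the 5 was -0.14. Among them the next smallest p was that of Maob, a monoamine oxidase that acts on histamine breakdown products (-0.20, limma adjusted p = 0.328). With 13 arrays Maob had -0.26 (adjusted p = 0.204).

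Of the IgE receptor signalling genes 4 were lower and 6 higher in obese rats. Gab2, an adaptor that links the receptor to phosphoinositide 3-kinase, had a log2 fold change of -0.79 ± 0.31 (limma adjusted p = 0.242). Lyn, the Src family kinase that phosphorylates the receptor, had 0.37 ± 0.14 (adjusted p = 0.230). With 13 arrays these were -0.91 (adjusted p = 0.190) and 0.41 (adjusted p = 0.160). Taken as the mean over its 2 probe sets, Lyn had 0.043 with 15 arrays and 0.033 with 13 arrays.

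Kitlg encodes stem cell factor, the ligand of Kit. Of its 4 probe sets 3 lay above the filter. The brightest gave 3692.1 to 4257.2 in obese rats (median 3977.4) and 3694.7 to 5758.1 in lean rats (median 4692.8). Kitlg had a log2 fold change of -0.22 ± 0.092 (limma adjusted p = 0.263) and -0.25 ± 0.10 with 13 arrays (adjusted p = 0.223), but the mean over its probe sets gave 0.032 and 0.042. Il1rl1, the receptor of interleukin-33, had -0.44 ± 0.17 (limma adjusted p = 0.230), and -0.48 ± 0.19 with 13 arrays (adjusted p = 0.195). Neither gene passed in either set of arrays.

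Of the granule list 2 genes were lower and 3 higher, beside 57.5% of all probe sets lower with 15 arrays. Slc18a2, the vesicular monoamine transporter that loads histamine into granules, had a log2 fold change of -0.21 ± 0.12 (limma adjusted p = 0.405). Mcpt1l1, annotated as a mast cell protease gene, had 0.18 ± 0.14 (adjusted p = 0.558). Of the lipid mediator genes 4 of 5 were lower, led by Hpgds, the prostaglandin D synthase of mast cells and macrophages, at -0.38 ± 0.18 (adjusted p = 0.341). The 4 transcription factors went both ways, 2 lower and 2 higher, with the smallest p for Tal1 at -0.18 (adjusted p = 0.426). With 13 arrays Slc18a2 had -0.26, Mcpt1l1 0.21, Hpgds -0.43 and Tal1 -0.22 (limma adjusted p = 0.325, 0.497, 0.289 and 0.358).

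Markers of other cell types, some of which share genes with mast cells, were counted beside these values. Over all probe sets 57.5% were lower in obese rats with 15 arrays and 57.8% with 13 arrays. The 3 basophil and eosinophil markers above the filter were all lower in obese rats, with a median log2 fold change of -0.41 (-0.47 with 13 arrays), and none passed. Summed over the 6 basophil and eosinophil markers with a probe set, 3 of them below the filter, the signal was 1781.5 to 3284.1 in obese rats. In lean rats it was 2204.5 to 4019.2. For other cells that use Kit, 2 of 6 markers were above the filter, both lower, led by Ano1 at -0.47 (limma adjusted p = 0.172). With 13 arrays Ano1 had -0.57 (limma adjusted p = 0.0920). All 4 lymphocyte markers above the filter were lower (median -0.18, and -0.23 with 13 arrays) and none passed. Of 7 mesothelial markers 6 were lower (median -0.26, and -0.31 with 13 arrays) and none passed. The median was 0.018 over 4 endothelial markers, and 0.013 with 13 arrays. No neutrophil or epididymal epithelial marker lay above the filter. The part of any of these lists in the mast cell values was not tested.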

How the data were processed

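Total RNA of epididymal fat was measured on 1 RAE230_2 array per rat. The values the authors deposited are linear intensity values, made with MAS5 per the submitters' processing notes; its version is not given in the sources used here. Their 2% trimmed mean was 1500.3 to 1500.4 on every array, so the authors' scaling was kept. MAS5 subtracts mismatch signal, which makes dim probe sets noisy, and scaling to a common mean lets bright probe sets lower the rest. The number of arrays limits the precision.

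Before taking log2, 79.9 (the 10th percentile of signals) was added to each signal, so changes of dim genes are understated. The 18625 probe sets whose mean lay above the 40th percentile were kept. Obese and lean rats were compared by lmFit and eBayes of limma 3.58.1 (R 4.3.3), with Benjamini-Hochberg adjustment over all kept probe sets and a threshold of 0.05. The script was tested on simulated data, a check that required only large planted changes to be found. It does not show that changes of the members' size would be found. Gene names came from the platform annotation, in which 20826 probe sets name 1 gene, 436 several and 9780 none, and only the first kind was used for names. For each gene the probe set with the highest mean was read. Correlations used 100000 two-sided permutations, or all of them for fewer than 10 rats, with Python 3.11.15. The plan had Tpsb2 pairs over all rats. Reading them over the upper rats was chosen after the gap was seen. Of the planned reading only the pair that passed is named, and its r values are not given.

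The members and gene lists were chosen with earlier results of these data known. Named are all members, other mast cell genes that passed or had the smallest p of their list, up to 3 genes of other cell types per list (the macrophage markers that passed make 4), and the 10 genes most like the members' mean. Sets of arrays with and without C1 and A7 were chosen because their likeness was known. The main fit did not pair rats by number. The correlation of deviations of same-numbered rats ran from -0.11 to 0.24. It was not set beside that of rats with different numbers, so it cannot tell whether the numbers mark pairs. The spike-in covariate and the likeness without Tpsb2 were added after seeing the data.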

Additional observations from a re-analysis of the deposited data

Results flagged for a closer look

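In each group of rats, the highest and the lowest rat of every member probe set were compared with the others by Dixon's ratio of the gap to the range. Of 18 groups tested 2 exceeded the 95% critical value, where chance gives about 1 in 20.

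The Kit signal of obese rat C3, 631.4, was far from the other obese rats, which had 95.7 to 214.2 (gap over range 0.631 on the log2 scale, critical value 0.568). C3 is also the array that stood apart from the others, with a spike-in level of 16.2 in log2 units. The Kit probe set lies below the filter on low values. Whether the spike-in level or the low signal has a part in the Kit value was not tested.

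The Tpsb2 signal of lean rat A3, 262.9, was far from the other lean rats, which had 1124.3 to 2489.3 (gap over range 0.624, critical value 0.526). A3 is the lean rat among the 4 rats low in Tpsb2. Its Cpa3 signal, 5818, was the second highest of the lean rats.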

How the results depend on the processing

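No member passed under any of the 26 alternatives with 15 arrays or the 24 with 13 arrays, and the members' median log2 fold change stayed below 0 in all of them: -0.22 to -0.13 (15 arrays) and -0.25 to -0.14 (13 arrays) without 1 rat, -0.20 to -0.072 and -0.28 to -0.077 otherwise. Fcer1a, Ms4a2, Cpa3 and Tpsb2 kept their sign wherever they could be tested, but not their size. Median centring took Fcer1a to -0.14 with both sets of arrays, Ms4a2 to -0.19 (15 arrays) and -0.18 (13), and Cpa3 to -0.0074 and -0.010. Ms4a2 and Hdc lie below a filter at the 60th percentile. Cma1 turned sign under median centring (0.068 with 15 arrays, 0.081 with 13) and the replicate block (0.027, 15 arrays), and ran from -0.13 to 0.061 and from -0.16 to 0.082 without 1 rat. Hdc turned sign under median centring (0.068, 0.10), quantile normalization (0.066, 0.099), the Gapdh covariate (0.052, 0.086) and the spike-in covariate (0.015, 13 arrays), and ran from -0.10 to 0.036 and from -0.087 to 0.073 without 1 rat. Kitlg turned sign in the mean over its probe sets (0.032, 0.042).

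Over all probe sets, 0 passed with 15 arrays. The count was 3 with no filter, 49 with a filter at the 60th percentile, 8 with trend and robust, and 0 to 245 without 1 rat (245 without obese rat C1, 1 without lean rat A7). With 13 arrays 189 passed. The count was 124 with a pseudocount of 1, 46 with no filter, 334 with the stricter filter, 389 with median centring (357 of them, or 91.8%, higher in obese rats, against 71.4% of the 189), 124 with quantile normalization, 14 with the Gapdh covariate, 309 with trend and robust, and 51 to 262 without 1 rat. Whether rats of the same number form pairs is not known. With the replicate block 3 probe sets passed with 13 arrays and 0 with 15, and Fcer1g (adjusted p = 0.185) and Slc22a3 (adjusted p = 0.131) were no longer called with 13 arrays.

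Of the member pairs, 0 passed in either set of arrays, 0 to 1 without 1 rat with 15 arrays, 0 to 2 with 13 arrays, and 1 (Fcer1a with Tpsb2) with 15 arrays and Tpsb2 over all rats, the planned reading. The cause was not tested. Dim signal limits Kit, Tpsab1 and the second Ms4a2 probe set, which were fitted only with no filter.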
